A study of Mus musculus with 15 samples.

Results

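The 46 genes described here act in ribosome biogenesis, the production of ribosomes in the nucleolus. They were taken by gene symbol from the count files of mouse neural stem and progenitor cells grown in culture, and all 46 of the 46 were found among 26263 named genes and passed the filter on low counts, as did 15261 genes in all. The cells came from the dorsal telencephalon, the future cerebral cortex, of E12.5 embryos and grew as floating neurospheres with EGF and FGF. Libraries fell into 4 groups by genotype and mouse background. KO_B6 (n = 4) carried a knockout of Kat6b, a histone lysine acetyltransferase gene, on C57BL/6, and WT_B6 (n = 3) was wild type on C57BL/6. Tg_FvB (n = 6) carried a Kat6b transgene, and WT_FvB (n = 2) was wild type, both on mixed FVB x BALB/c mice. Each library stands for the cultured cells of 1 embryo, and the litters were 843 and 929 for KO_B6, 844, 843 and 929 for WT_B6, 844 and 873 for Tg_FvB, and 844 for WT_FvB. The labels give neither the deleted part of Kat6b nor the promoter of the transgene. The genotype comparisons ask what loss and gain of Kat6b change in these cells. Genotype was compared within each background, and background only between the wild types.

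Ribosome biogenesis begins when RNA polymerase I transcribes the precursor of the large ribosomal RNAs. Small nucleolar RNA-protein complexes (snoRNPs) modify this precursor, and a large processome folds and cleaves it into small and large subunit precursors, which mature further and leave for the cytoplasm. The transcription factor MYC is known to raise the expression of many of these genes, and fast-growing stem and progenitor cells are known for large nucleoli. In what follows CPM is the count scaled to a common library size after TMM scaling (a correction for library composition), log2 fold changes are given with a standard error (SE), and a gene is called when its Benjamini-Hochberg adjusted p in edgeR's quasi-likelihood test across all 15261 genes was under 0.05. "Rose" and "fell" are used of called genes.

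Total counts of named genes ran from 12336303 to 62819028 per library, and every KO_B6 library was deeper than every WT_B6 library. Kat6b had 61.0, 64.1, 66.1 and 62.3 CPM in KO_B6, against 85.1, 84.1 and 83.5 CPM in WT_B6, a log2 fold change of -0.41 ± 0.17 (SE) that was not called (adjusted p = 0.0571); an exact 2-sided permutation test over 35 splits reached its smallest possible p, 0.0286. A count over the whole gene does not show which part an allele lacks, so this level does not check the knockout labels. In the 6 Tg_FvB libraries, in order of replicate, Kat6b had 268, 265, 266, 229, 139.6 and 289 CPM, against 54.4 and 51.9 CPM in WT_FvB (log2 fold change 2.19 ± 0.21 (SE), adjusted p = 2.38e-04 by edgeR). Some libraries went against parts of their labels or stood apart. The titles of Tg_FvB call them knockouts, replicates 5 and 6 of that group have wild-type names in their count column headings, and the genotype field of the labels was followed. Those 2 libraries also lay between the backgrounds in genes that separate them: Rpl29, a ribosomal protein gene, had 121 and 28.4 CPM there and 3.41 to 8.55 CPM in the other Tg_FvB libraries, against 6.70 and 6.74 CPM in WT_FvB, while the B6 libraries held 172.7 to 200.8 CPM. WT_B6 replicate 1 and WT_FvB replicate 2 bear the same litter and embryo numbers. Within groups, the 3 WT_B6 libraries, KO_B6 replicates 2 and 3, both WT_FvB libraries and Tg_FvB replicates 1 to 3 were near-identical, with pairwise biological coefficients of variation of 0.0172 to 0.0503 against 0.115 to 0.275 for the other pairs; they still differed beyond sampling noise, with a chi-square of 2.07 to 11.0 per degree of freedom. The p-values measure the spread between these libraries. All 8 neural stem cell markers averaged at least 1 CPM in each group, and marker lists of microglia, endothelial, mesenchymal and erythroid cells summed to at most 4.67 CPM in any library. Summed lists of the neural lineages were high as well, mostly through a single gene of each list. Over all libraries the sums ran from 873 to 1154 CPM for neurons and 1457 to 2085 CPM for the oligodendrocyte lineage. For astrocytes they ran from 1854 to 3071 CPM. Map2 alone had 845 to 1127 CPM, Olig1 990 to 1829 CPM and Slc1a3 1587 to 2352 CPM. The neuron markers Tubb3 and Dcx had at most 26.3 and 40.3 CPM in any library.

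Loss of Kat6b went with higher RNA levels of nearly the whole set. In KO_B6, 43 of the 46 genes rose and 0 fell, where 24.8% of all 15261 genes rose and 20.9% fell. Of the 43, Imp3, Imp4 and Pes1 lost their call in 20, 13 and 11 of 24 alternative analyses. The 3 genes not called were Polr1c, Utp3 and Ddx10, and their log2 fold changes too were above 0, as were 52% of all genes. The median log2 fold change was 0.68, against 0.02 over all genes, and single genes ran from 0.08 (Ddx10) to 1.16 (Gnl3). The rise passed 2-fold in 5 genes, Gnl3, Rrp1b, Rrp12, Myc and Nop56, where 7.75% of all genes were called past 2-fold in either direction. All 4 KO_B6 libraries lay above all 3 WT_B6 libraries in 45 of the 46 genes, which held for 29.3% of all genes; the exception was Utp3. Both litters that hold both genotypes gave the same order, since both knockouts of litter 843 and both of litter 929 were above the wild type of their litter in 46 of 46 genes (41.7% and 44.6% of all genes). These 2 counts are not independent. The wild types of the 2 litters were near-identical (biological coefficient of variation 0.0172). So were KO_B6 replicate 2 of litter 843 and replicate 3 of litter 929 (0.0268). Averaged over the 46 genes, the log2 CPM was 6.27 ± 0.062 in KO_B6 (SD, n = 4) and 5.62 ± 0.018 in WT_B6 (SD, n = 3), and the genes took up 0.477% to 0.523% of the counts in KO_B6, against 0.327% to 0.340% in WT_B6. With near-identical libraries summed, which leaves 3 KO_B6 profiles and 1 WT_B6 profile, the median was 0.62 and 0 of the 46 genes were called (lowest adjusted p = 0.0667 by edgeR), with 34 at an unadjusted p under 0.05, against 21.7% of all genes. That fit called 5 of all genes.

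**Figure D1:**
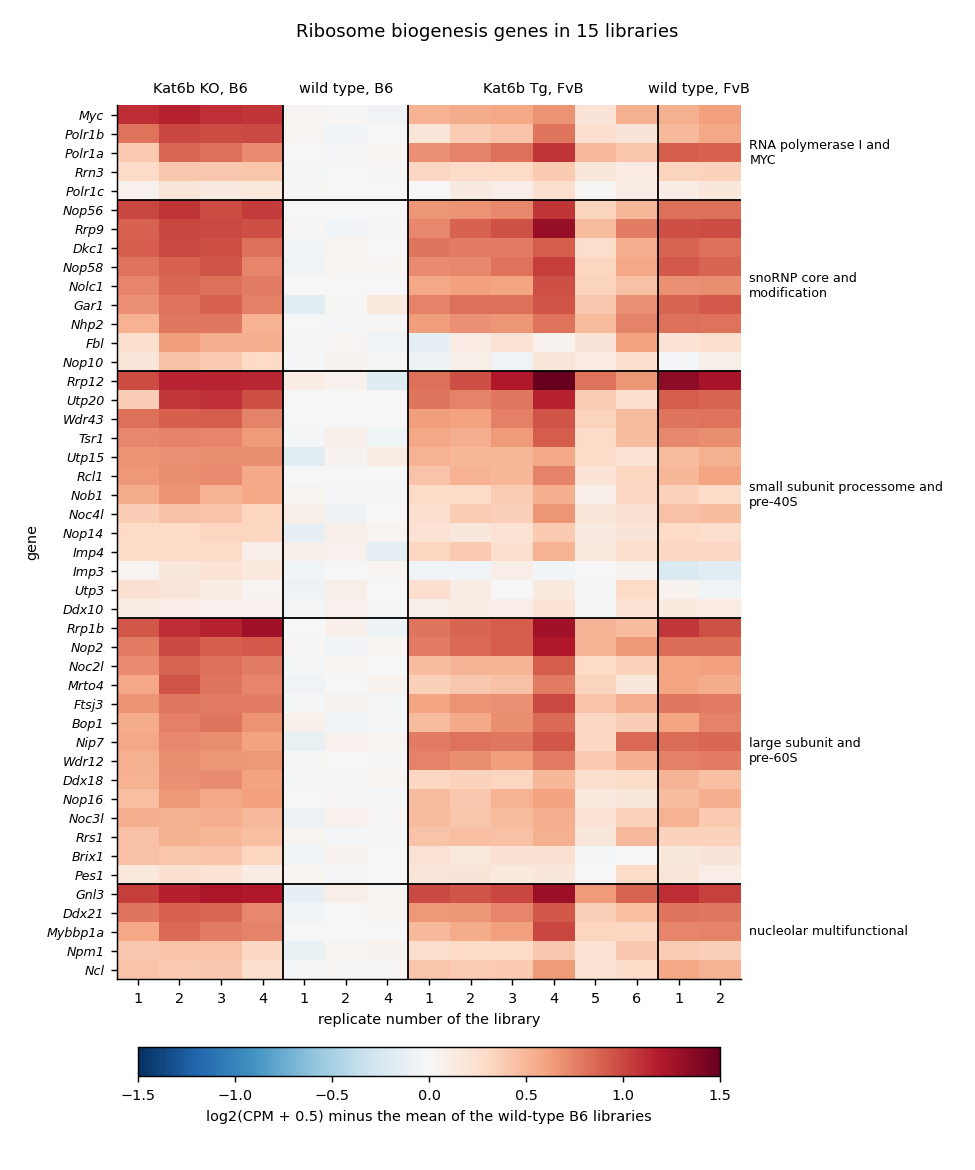
Level of each of the 46 genes (rows, grouped by role) in each of the 15 libraries (columns, by group and replicate number), as log2(CPM + 0.5) minus the mean of the WT_B6 libraries. Nearly all rows are red in KO_B6 and, to a degree that varies by library, in Tg_FvB and WT_FvB, and the WT_B6 columns are pale.

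**Figure D2:**
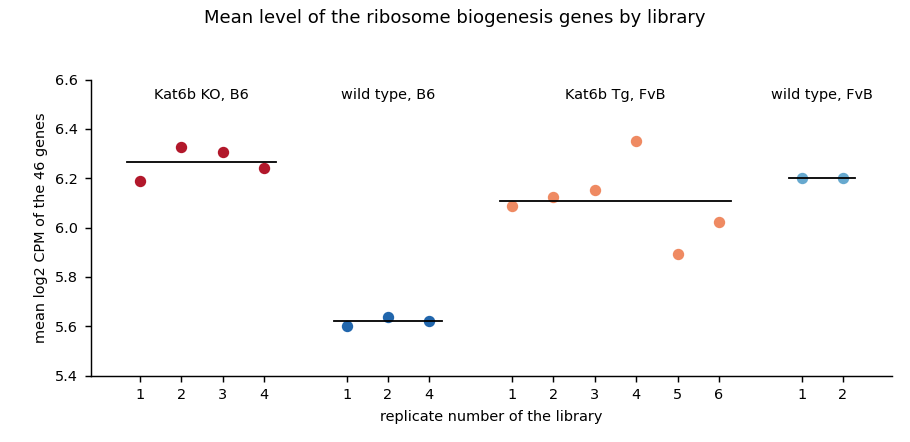
Mean log2 CPM of the 46 genes in each library (points) with the group mean (bar). The KO_B6 libraries lie between 6.19 and 6.33 and the WT_B6 libraries between 5.60 and 5.64. Tg_FvB runs from 5.89 to 6.35, and all its libraries but replicate 4 lie below the 6.20 of both WT_FvB libraries.

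Myc and the RNA polymerase I machinery come first in the pathway. Myc (chromosome 15, 61985341 to 61990361, GRCm38) had 131, 134, 129 and 126 CPM in KO_B6, against 62.0, 60.8 and 57.7 CPM in WT_B6. The knockout libraries all lay above the highest wild-type value and close to each other, and the log2 fold change was 1.11 ± 0.085 (SE) (adjusted p = 1.79e-06 by edgeR's quasi-likelihood test), the smallest adjusted p of the 46 genes. Polr1b, which with Polr1a forms the catalytic core of RNA polymerase I, had 46.8, 53.5, 52.5 and 53.2 CPM in KO_B6, against 27.2, 25.7 and 26.6 CPM in WT_B6, and rose by a log2 fold change of 0.96 ± 0.12 (SE). Polr1a, the largest subunit, had 80.1, 111, 108 and 100.1 CPM in KO_B6, against 60.7, 60.1 and 62.2 CPM in WT_B6, and rose by 0.71 ± 0.14 (SE) on the log2 scale. KO_B6 replicate 1 was the lowest of its group in both subunits, and no library of WT_B6 reached it. Rrn3, the factor that recruits the polymerase to ribosomal gene promoters, averaged 121 ± 4.85 CPM (SD, n = 4) in KO_B6 and 92.7 ± 1.52 CPM (SD, n = 3) in WT_B6 and rose less, by 0.38 ± 0.062 (SE) on the log2 scale. Polr1c, a subunit that RNA polymerase III also uses, had 50.5, 55.0, 53.1 and 54.0 CPM in KO_B6, against 48.8, 48.1 and 47.9 CPM in WT_B6. Its groups did not overlap either, but the log2 fold change of 0.14 (95% interval 0.01 to 0.27) was not called (adjusted p = 0.0737 by edgeR).

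All 9 genes of the snoRNP group rose, with a median log2 fold change of 0.80. Box C/D snoRNPs guide ribose methylation of ribosomal RNA. Of their core proteins, Nop56 (chromosome 2, 130274367 to 130279313) had 158, 165, 155 and 162 CPM in KO_B6, against 77.9, 78.1 and 78.9 CPM in WT_B6. Within each group the libraries lay close together, and the log2 fold change was 1.03 ± 0.12 (SE) (adjusted p = 2.21e-05 by edgeR). Its partner Nop58 rose by 0.85 ± 0.12 (SE) on the log2 scale, with a mean of 167 CPM in KO_B6 against 93.2 CPM in WT_B6, and the methyltransferase Fbl rose by 0.51 ± 0.14 (SE). Snu13, the fourth core protein and not among the 46, rose by 0.26 ± 0.079 (SE) (adjusted p = 0.0152). Box H/ACA snoRNPs guide pseudouridylation. The pseudouridine synthase Dkc1 had 101, 108, 106 and 96.7 CPM in KO_B6, against 52.5, 55.5 and 54.4 CPM in WT_B6, a rise of 0.93 ± 0.11 (SE) on the log2 scale. Gar1 rose by 0.79 ± 0.11 (SE), and Nhp2 (chromosome 11, 51619773 to 51623718), an RNA-binding core protein, had 84.3, 102, 101 and 84.3 CPM in KO_B6, against 58.5, 57.7 and 59.2 CPM in WT_B6. The knockout values of Nhp2 fell at 2 levels, with replicates 2 and 3 above replicates 1 and 4, all above the wild type, and the log2 fold change was 0.67 ± 0.084 (SE) (adjusted p = 3.59e-05). Nop10, the smallest protein of that complex, rose least, by 0.34 ± 0.083 (SE). The snoRNP chaperone Nolc1 rose by 0.80 and Rrp9, a protein of the U3 snoRNP, by 0.98 ± 0.14 (SE) on the log2 scale. The log2 fold changes of the core proteins thus ran from 0.26 (Snu13) to 1.03 in the box C/D set and from 0.34 to 0.93 in the H/ACA set.

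Of the 13 genes of the small subunit processome and the later small subunit precursors, 11 rose, with a median log2 fold change of 0.59 over the 13. Rrp12 (chromosome 19, 41859483 to 41896153), which takes part in small subunit maturation and export, had 28.8, 32.2, 32.4 and 32.0 CPM in KO_B6, against 15.6, 15.1 and 12.7 CPM in WT_B6. No wild-type library came near the knockouts, and the log2 fold change was 1.12 ± 0.16 (SE) (adjusted p = 9.97e-05 by edgeR). Utp20, a large scaffold protein, had 71.2, 116, 118 and 108 CPM in KO_B6, against 54.6, 55.2 and 55.4 CPM in WT_B6, and rose by 0.91 ± 0.19 (SE) on the log2 scale. KO_B6 replicate 1 stood apart here, nearer to the wild types than to the other knockouts. Utp15 and Wdr43, of the early-binding UTP-A module, rose by 0.69 and 0.85. Tsr1, a late-acting protein related to GTPases, rose by 0.71, Rcl1 by 0.67 and Nob1, the endonuclease that trims the small subunit RNA at its end, by 0.59 on the log2 scale. Noc4l and its partner Nop14 rose by 0.39 and 0.31. Imp3 and Imp4 bind the U3 snoRNA together with Mphosph10, and their estimates were unequal: Imp3 rose by 0.15 ± 0.057 (SE) (adjusted p = 0.0489), a call lost in 20 of 24 alternatives, Imp4 by 0.24 ± 0.087 (SE) (adjusted p = 0.0372), and Mphosph10, not among the 46, by 0.48 ± 0.076 (SE) (adjusted p = 1.89e-04), all by edgeR's quasi-likelihood test. Utp3 had 66.0, 63.7, 60.7 and 58.0 CPM in KO_B6, against 53.2, 59.6 and 56.0 CPM in WT_B6, and the groups overlapped. Ddx10, an RNA helicase, had 35.2, 34.8, 33.9 and 34.0 CPM in KO_B6, against 31.9, 33.9 and 31.8 CPM in WT_B6, groups that nearly touched. Neither was called, with log2 fold changes of 0.14 (95% interval -0.03 to 0.31) and 0.08 (95% interval -0.05 to 0.22).

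All 14 genes of large subunit assembly rose, with a median log2 fold change of 0.65. Rrp1b (chromosome 17, 32036162 to 32062865), a nucleolar protein of large subunit assembly, had 62.3, 71.0, 73.1 and 79.0 CPM in KO_B6, against 32.3, 34.4 and 31.0 CPM in WT_B6. Each knockout library was well above each wild type, and the log2 fold change was 1.13 ± 0.15 (SE) (adjusted p = 5.31e-05 by edgeR). Nop2, a ribosomal RNA cytosine methyltransferase, had 68.1, 79.1, 74.0 and 75.2 CPM in KO_B6, against 39.8, 38.2 and 40.4 CPM in WT_B6, a rise of 0.91 ± 0.12 (SE) on the log2 scale. Ddx18 (chromosome 1, 121553835 to 121567980), an RNA helicase, had 37.6, 42.3, 42.7 and 39.8 CPM in KO_B6, against 25.7, 25.4 and 26.8 CPM in WT_B6. Its groups stood well apart relative to their spread, with a log2 fold change of 0.64 ± 0.069 (SE) (adjusted p = 1.29e-05). The methyltransferase Ftsj3 rose by 0.76, Noc2l by 0.80, its partner Noc3l by 0.53, and Mrto4, which holds the place of the ribosomal stalk, by 0.78. The files also list 2 pseudogenes of Mrto4, so reads may be shared with them. Nip7, Nop16, Rrs1 and Brix1 rose by 0.66, 0.58, 0.48 and 0.40 on the log2 scale. The PeBoW complex joins Pes1, Bop1 and Wdr12, and the estimates of its members were unequal. Bop1 and Wdr12 rose by 0.70 ± 0.11 (SE) and 0.65 ± 0.083 (SE), while Pes1 rose by 0.18 ± 0.062 (SE) (adjusted p = 0.0249), to 86.4, 91.5, 89.5 and 83.9 CPM in KO_B6, against 79.2, 75.6 and 77.3 CPM in WT_B6.

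The 5 multifunctional nucleolar proteins rose as well, with a median of 0.74 on the log2 scale. Gnl3 (chromosome 14, 31012433 to 31019131), the GTPase nucleostemin that is abundant in stem cells, had 95.3, 104, 108 and 107 CPM in KO_B6, against 42.3, 49.1 and 47.5 CPM in WT_B6. The groups did not come near each other, and the log2 fold change of 1.16 ± 0.11 (SE) was the largest of the 46 (adjusted p = 6.58e-06 by edgeR). The RNA helicase Ddx21 rose by 0.82 ± 0.10 (SE) and Mybbp1a, a nucleolar protein that binds MYB, by 0.74 ± 0.13 (SE). The most abundant of all per length were the histone chaperone Npm1 and nucleolin, Ncl, at 238 and 124 CPM per kilobase in KO_B6, against 181.3 and 95.9 CPM per kilobase in WT_B6. Their log2 fold changes, 0.39 ± 0.062 (SE) for Npm1 and 0.37 ± 0.085 (SE) for Ncl, were among the smaller of the called rises. At the other end of the per-length levels, Rrp12 had 7.26 CPM per kilobase in KO_B6, against 3.34 CPM per kilobase in WT_B6.

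**Figure D3:**
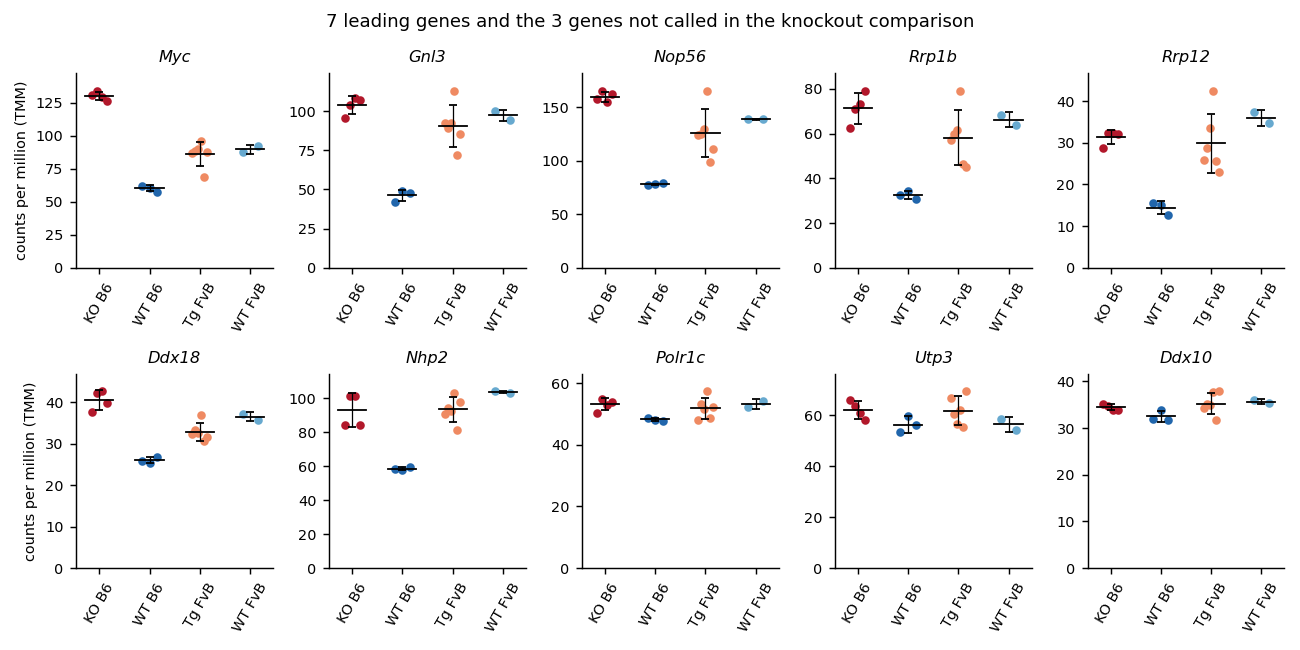
CPM in every library (points) with the group mean and SD (bars) for the 7 genes with the largest rises or the clearest differences between the genotype effects, and for the 3 genes not called in KO_B6. In the first 7 panels every KO_B6 point is above every WT_B6 point, and in Polr1c, Utp3 and Ddx10 the groups lie close together.

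Gain of Kat6b went with no call in the fit of all 15 libraries. In the FvB background 0 of the 46 genes were called in either direction by edgeR, where 0.688% of all genes were called higher and 1.17% lower in Tg_FvB. With so few calls, 0 of 46 is near the share over all genes and is not particular to the 46. DESeq2 called 0 as well, and 1 of the 46 had an unadjusted p under 0.05, against 18.3% of all genes. The direction leaned the other way from the knockout: 39 of 46 log2 fold changes were below 0, as were 46.9% of all genes, and the median was -0.10, against 0.01 over all genes. The 95% intervals of the 46 values lay between -0.63 and 0.34. Myc had 68.8 to 96.0 CPM (median 87.8 CPM) in the 6 Tg_FvB libraries, against 87.3 and 92.0 CPM in WT_FvB, and the groups overlapped (log2 fold change -0.06 ± 0.089 (SE), adjusted p = 0.759). Gnl3 had 71.9 to 113 CPM (median 90.8 CPM) in the 6 Tg_FvB libraries, against 99.8 and 94.6 CPM in WT_FvB. In Nop56 the range was 99.0 to 165 CPM (median 125 CPM) in the 6 Tg_FvB libraries, against 139 and 139 CPM in WT_FvB. Both wild types lay inside the transgenic range in these 3 genes. Rrp12 had the lowest log2 fold change, -0.28 ± 0.17 (SE), with 23.1 to 42.4 CPM (median 27.3 CPM) in the 6 Tg_FvB libraries, against 37.3 and 34.6 CPM in WT_FvB, and Rrp1b ran at -0.19 ± 0.16 (SE), with 45.1 to 78.8 CPM (median 58.4 CPM) in the 6 Tg_FvB libraries, against 68.5 and 63.7 CPM in WT_FvB. Ddx18 had 30.8 to 37.0 CPM (median 32.5 CPM) in the 6 Tg_FvB libraries, against 37.3 and 35.7 CPM in WT_FvB, with overlapping groups and a 95% interval of -0.31 to 0.01. Nhp2 had 81.3 to 103 CPM (median 93.5 CPM) in the 6 Tg_FvB libraries, against 104 and 103 CPM in WT_FvB, and its transgenic libraries all lay just below both wild types. Imp3, which had the smallest unadjusted p, was the one gene with a positive interval, 0.07 to 0.34 (log2 fold change 0.20, adjusted p = 0.106), with 39.1 to 43.5 CPM (median 40.1 CPM) in the 6 Tg_FvB libraries, against 34.7 and 36.0 CPM in WT_FvB; its groups did not overlap either. Within litter 844, both transgenic libraries were below both wild types in 31 of the 46 genes, which held for 30.7% of all genes. Both pairs were near-identical (biological coefficients of variation 0.0415 and 0.0316), so this order is close to that of single profiles. The lack of calls depended in part on replicate 4 of Tg_FvB. Without it edgeR called 3 of the 46, and the median was -0.17. By edgeR they were Rrp12 at -0.40 (adjusted p = 0.0451), Mybbp1a at -0.28 (adjusted p = 0.0433) and Imp3 at 0.21 (adjusted p = 0.0420) on the log2 scale. Without replicates 5 and 6 the median was -0.033 and 0 genes were called.

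**Figure D4:**
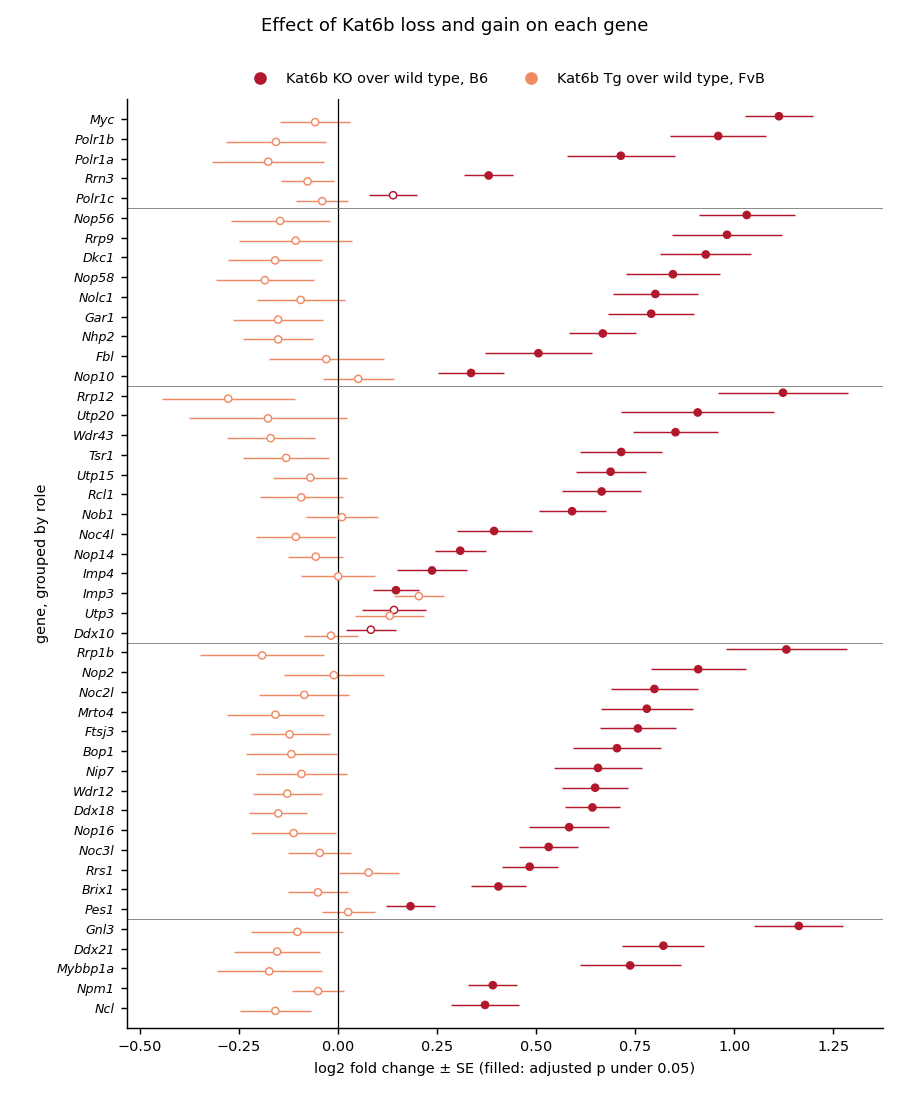
Log2 fold change ± SE of each gene in KO_B6 over WT_B6 (dark red) and in Tg_FvB over WT_FvB (orange), grouped by role. Filled points have an adjusted p under 0.05: 43 of the 46 dark red points are filled, all lie above 0, and the orange points lie between -0.28 and 0.20 with none filled.

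The 2 genotype effects differed, by the test of the difference itself, in 39 of the 46 genes. All 39 differences were positive, meaning that KO_B6 over WT_B6 exceeded Tg_FvB over WT_FvB; 19.5% of all genes were called in that direction and 17.8% in the other. Without Tg_FvB replicates 5 and 6, 40 of the 46 were called and the median was 0.72. The median difference was 0.81 on the log2 scale, against 0.01 over all genes. Myc had the smallest adjusted p, with a difference of 1.17 ± 0.12 (SE) (adjusted p = 6.55e-05 by edgeR's quasi-likelihood test). Gnl3 followed at 1.27 ± 0.16 (SE) and Ddx18 at 0.79 ± 0.10 (SE), both with an adjusted p of 1.84e-04. Nop56 differed by 1.18 ± 0.17 (SE) and Nhp2 by 0.82 ± 0.12 (SE). Polr1c, Nop10, Imp3, Imp4, Utp3, Ddx10 and Pes1 were not called. With near-identical libraries summed, 0 of the 46 were called and 32 had an unadjusted p under 0.05, against 17.6% of all genes.

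The wild types of the 2 backgrounds also differed, and the WT_B6 libraries were the low ones. In WT_FvB, 38 of the 46 genes were higher and 1, Imp3, was lower than in WT_B6, where 25.4% and 23.5% of all genes were called in these directions; the median log2 fold change was 0.58. Rrp12 differed most, with 37.3 and 34.6 CPM in WT_FvB, against 15.6, 15.1 and 12.7 CPM in WT_B6 (log2 fold change 1.32 ± 0.19 (SE)). Gnl3 had 99.8 and 94.6 CPM in WT_FvB, against 42.3, 49.1 and 47.5 CPM in WT_B6, and Myc had 87.3 and 92.0 CPM, against 62.0, 60.8 and 57.7 CPM. Imp3 had 34.7 and 36.0 CPM in WT_FvB, against 39.5, 40.7 and 41.4 CPM in WT_B6. The 7 not called were Fbl, Nop10, Utp3, Polr1c, Ddx10, Brix1 and Pes1. Background and anything else that set these libraries apart cannot be told apart here, and the knockout comparison uses the same WT_B6 libraries, so the comparisons are not independent. Set side by side, the log2 fold change of Gnl3 was 1.16 in KO_B6 over WT_B6 and 1.07 in WT_FvB over WT_B6, that of Myc was 1.11 and 0.58, and that of Fbl was 0.51 and 0.23. In 45 of the 46 genes the KO_B6 mean was nearer to WT_FvB than to WT_B6, as in 53.6% of all genes. In 38 of the 46 each WT_B6 library was below all 12 other libraries, which held for 15.3% of all genes; the exceptions were Fbl, Nop10, Pes1, Utp3, Polr1c, Ddx10, Brix1 and Imp3. The WT_FvB libraries, with 19930942 and 21417513 counts, had mean log2 CPM values of 6.20, while the WT_B6 libraries, with 18483747 to 31067022 counts, had 5.60 to 5.64. With near-identical libraries summed, 0 of the 46 genes were called between the wild types, at a median of 0.55.

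Single libraries stood high or low in many of the 46 genes at once. Tg_FvB replicate 4, the shallowest library, was the highest of its group in 38 of the 46 genes, against 28.3% of all genes, and replicate 5 was the lowest in 33, against 22.7%. Their mean log2 CPM over the 46 genes was 6.35 and 5.89, a wider gap than between the Tg_FvB mean of 6.11 ± 0.15 (SD, n = 6) and the WT_FvB mean of 6.20 ± 0.0017 (SD, n = 2). KO_B6 replicate 1 was the lowest knockout in 28 genes, against 33.8% of all genes. Gene length was set against the shifts of KO_B6 replicates 1 and 4 and of Tg_FvB replicates 4 to 6. Over all genes it moved most with the shifts of Tg_FvB replicate 6. In Tg_FvB replicate 6, the longest of 5 equal classes of genes (4685 bases and over) differed from the rest of the group by a median of -0.14 on the log2 scale, and those in the shortest class (up to 1493 bases) by 0.12; for the 5 and 7 of the 46 genes in these classes the medians were -0.35 and 0.058. In KO_B6 replicate 1 the 46 genes had medians below 0 in all 5 classes, among them -0.25 in the longest and -0.18 in the shortest, against -0.074 and -0.017 for all genes of those classes. For Tg_FvB replicate 4 the medians of the 46 were 0.17 (shortest class) and 0.44 (longest), against -0.023 and 0.045 for all genes. The part of these shifts in the results was not tested.

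Other genes of the pathway moved in the same direction in KO_B6, with lower medians. The 46 genes and all lists compared here were chosen with earlier results of these data known. Their medians therefore do not test the lists against each other. Of 46 further genes of the small subunit processome, 37 rose and 0 fell (median log2 fold change 0.37), with Dimt1, a ribosomal RNA dimethyltransferase, at 0.94 ± 0.10 (SE), the scaffold Heatr1 at 0.81 ± 0.13 (SE) and the acetyltransferase Nat10 at 0.72 ± 0.13 (SE). Of 50 further large subunit assembly genes, 39 rose and 3 fell (median 0.44). Ppan, an assembly factor, had 50.2, 56.4, 56.0 and 56.3 CPM in KO_B6, against 21.3, 22.1 and 21.2 CPM in WT_B6, a log2 fold change of 1.35 ± 0.14 (SE) that exceeded any among the 46, and Nle1 and Urb2 rose by 1.03 and 0.79. Of 28 genes of the RNA exosome and RNase MRP, which trim and cleave the precursor RNA, 17 rose and 0 fell (median 0.24), led by Exosc6 at 0.93, Rpp40 at 0.82 and Exosc8 at 0.81. Of 22 further RNA polymerase I subunits and factors, 11 rose and 2 fell (median 0.21), with Taf1d and Taf1a, of the promoter-binding complex, at 0.86 and 0.78 and the subunit Polr1e at 0.85. In Tg_FvB 0 genes of these 4 lists were called, and their medians lay between -0.05 and -0.02. Between the wild types, WT_FvB over WT_B6, the medians of the 4 lists, in the order above, were 0.38, 0.44, 0.19 and 0.19. Ppan had 54.7 and 55.1 CPM in WT_FvB, a log2 fold change of 1.35 ± 0.17 (SE) over WT_B6, so these lists too were low in WT_B6.

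The ribosomal proteins, the structural products that these factors assemble, did not share the pattern. Of 79 ribosomal protein genes, 5 rose and 7 fell in KO_B6 (median log2 fold change -0.04), with Rpl10a, Rpl12 and Rps12 at 0.91, 0.86 and 0.64; in Tg_FvB 1, Rps28, fell (-1.30 ± 0.24 (SE), adjusted p = 0.0232 by edgeR). These values are uncertain, since ribosomal protein genes have many near-identical copies between which reads can be split. Of 16 other genes of the MYC network, 4 rose and 5 fell (median -0.17), where 24.8% of all genes rose and 20.9% fell. Mycl, a MYC family member, had 40.4, 32.5, 30.0 and 32.9 CPM in KO_B6, against 83.1, 79.9 and 80.6 CPM in WT_B6 (log2 fold change -1.26 ± 0.19 (SE)), and Mlxipl, a partner of MLX, and Mxi1, a partner of MAX, fell by 1.24 and 1.22 on the log2 scale. Mycl was low in WT_FvB as well, at 28.2 and 27.6 CPM. Mlxipl was scarce, with means of 0.593 CPM in KO_B6 and 1.40 CPM in WT_B6. Mycn, the family member known for its role in neural progenitors, had 3.25, 3.48, 3.53 and 3.30 CPM in KO_B6, against 3.82, 3.59 and 4.25 CPM in WT_B6, with a log2 fold change of -0.20 ± 0.21 (SE) that was not called (adjusted p = 0.472). In FvB cells it had 3.76 to 8.58 CPM in Tg_FvB, against 8.62 and 9.11 CPM in WT_FvB. Max itself, the shared partner, did not differ detectably, at -0.04 ± 0.094 (SE).

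DNA replication genes, a list from outside the pathway, moved with the 46 genes. This list too was chosen with earlier results known. In KO_B6 25 of 26 rose and 0 fell (median log2 fold change 0.66), among them the thymidylate synthase Tyms (1.11), the origin-licensing factor Cdc6 (1.00) and the histone chaperone subunit Chaf1b (0.94). In Tg_FvB 0 of 26 were called and 24 log2 fold changes were below 0 (median -0.18). The mean log2 CPM of this list was 6.45 to 6.67 in KO_B6, against 5.92 in all 3 WT_B6 libraries, and 6.09 to 6.55 in Tg_FvB, against 6.50 in both WT_FvB libraries. Mki67, a proliferation marker chosen after its values were seen, had 512, 954, 959 and 771 CPM in KO_B6, against 529.8, 560.1 and 558 CPM in WT_B6, and was not called (adjusted p = 0.0521 by edgeR). Markers of neural stem cells and of astrocytes moved as well: 1 of 8 neural stem cell markers rose and 5 fell in KO_B6, with summed levels of 5725 to 6975 CPM in KO_B6, against 7139 to 7145 CPM in WT_B6, and 0 of 6 astrocyte markers rose and 5 fell, with 1854 to 2282 CPM in KO_B6, against 2322 to 2336 CPM in WT_B6. Of 6 neuron markers 1 rose and 2 fell, and of 6 oligodendrocyte lineage markers 0 rose and 2 fell. Over all genes 24.8% rose and 20.9% fell. The astrocyte fall was not particular to the knockout, since 3 of the 6 markers fell and 0 rose in Tg_FvB, against 1.17% and 0.688% of all genes. The neural stem, neuron and oligodendrocyte lineage lists had 1 rise each and 0 falls in Tg_FvB. The part of cell cycle and cell state in the results was not tested, and in RNA of whole cultures more cells with a high level cannot be told apart from more RNA per cell.

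**Figure D5:**
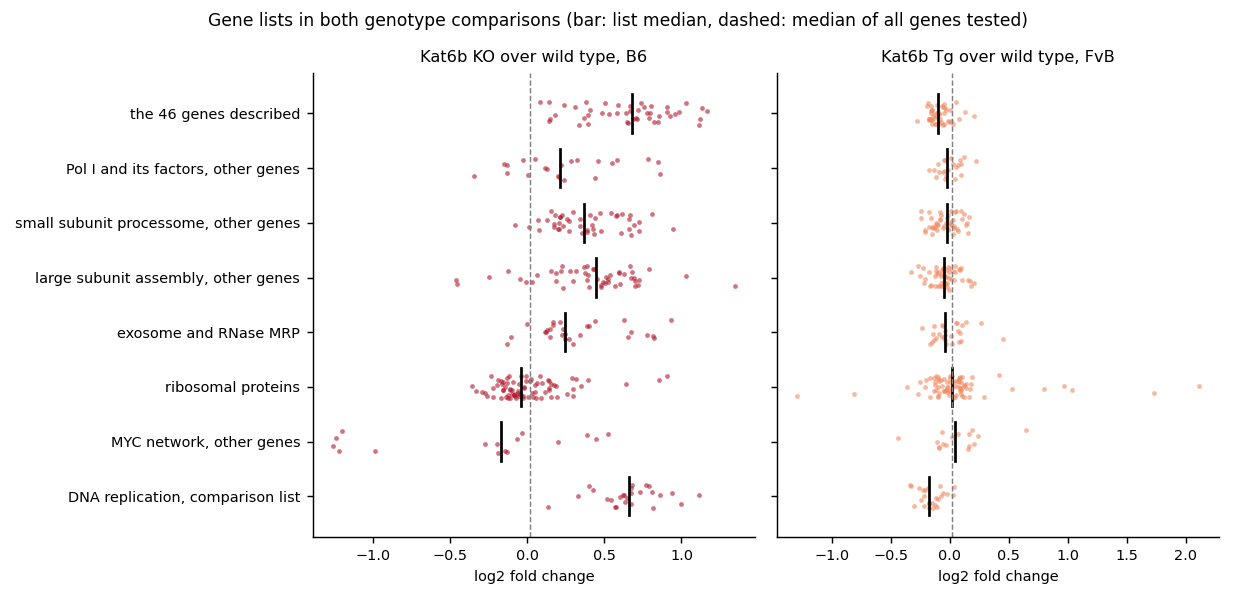
Log2 fold change of each gene (points) in the 46 genes and in 7 other gene lists, for KO_B6 over WT_B6 (left) and Tg_FvB over WT_FvB (right), with the median of each list (bar) and of all genes tested (dashed line). On the left the medians run from 0.68 for the 46 genes and 0.66 for DNA replication to -0.04 for ribosomal proteins and -0.17 for the MYC network, and on the right from -0.18 to 0.04.

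Some of the genes hold features of structure that did not enter their choice. Of the 46, 7 hold a small nucleolar or Cajal body RNA gene inside the gene on the same strand, 15.2%, against 1.80% of 13700 protein-coding genes tested (GENCODE annotation of GRCm38). These hosts are Ncl, Nop56, Nop58, Gnl3, Dkc1, Wdr43 and Tsr1, and Nop56 holds 5 such genes, among them Snord57 and Snord110. Tsr1 and Noc2l share 32.3% and 20.9% of their exon bases with the neighbouring genes Srr and Samd11, and since strand use in counting is not given in the sources used here, their counts are uncertain. Promoters, taken as 250 bases before to 50 bases after the first listed start, were found for 40 of the 46 genes. The palindromic letters CACGTG, the E-box that MYC and MAX bind, stood in 8 of the 40 (20.0%), those of Imp4, Nop2, Utp20, Pes1, Mybbp1a, Tsr1, Rrn3 and Wdr43, against 9.99% of 11557 promoters of tested genes. CACGCG or its reverse complement CGCGTG stood in 12 of 40 (30.0%), against 17.6%. The promoters had a median GC content of 60.7% and 23 CpG sites, against 61.0% and 20 CpG sites over all tested. The median log2 fold change in KO_B6 was 0.73 for the 8 genes with CACGTG and 0.67 for the 32 without it. Letters that match are not evidence of binding. Promoter sequences from RefSeq (GRCm38.p6) of 6 genes are given 5′ to 3′ on the strand of the gene, in lower case with CACGTG in capitals, to set genes with these letters beside genes without them. Nop2 (chr6:125131633-125131932, plus strand) and Wdr43 (chr17:71615965-71616264, plus strand), which rose by 0.91 and 0.85 on the log2 scale, hold 1 match each, and Rrn3 (chr16:13780449-13780748, plus strand), which rose by 0.38, holds 2. Gnl3 (chr14:31019082-31019381, minus strand) and Nop56 (chr2:130274162-130274461, plus strand), among the largest rises at 1.16 and 1.03, hold none, and neither does Ddx10 (chr9:53248063-53248362, minus strand), which was not called at 0.08.
Nop2: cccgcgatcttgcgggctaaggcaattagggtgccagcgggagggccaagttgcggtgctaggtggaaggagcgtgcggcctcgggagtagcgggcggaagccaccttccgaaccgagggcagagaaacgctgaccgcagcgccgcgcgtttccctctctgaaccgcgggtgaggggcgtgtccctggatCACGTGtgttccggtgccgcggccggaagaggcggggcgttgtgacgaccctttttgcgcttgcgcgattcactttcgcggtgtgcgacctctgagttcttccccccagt
Wdr43: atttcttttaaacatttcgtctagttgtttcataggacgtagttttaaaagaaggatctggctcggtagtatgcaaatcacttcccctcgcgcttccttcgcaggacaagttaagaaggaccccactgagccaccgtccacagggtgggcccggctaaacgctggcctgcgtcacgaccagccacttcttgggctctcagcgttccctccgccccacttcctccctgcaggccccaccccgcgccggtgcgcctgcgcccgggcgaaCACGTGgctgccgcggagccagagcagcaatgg
Rrn3: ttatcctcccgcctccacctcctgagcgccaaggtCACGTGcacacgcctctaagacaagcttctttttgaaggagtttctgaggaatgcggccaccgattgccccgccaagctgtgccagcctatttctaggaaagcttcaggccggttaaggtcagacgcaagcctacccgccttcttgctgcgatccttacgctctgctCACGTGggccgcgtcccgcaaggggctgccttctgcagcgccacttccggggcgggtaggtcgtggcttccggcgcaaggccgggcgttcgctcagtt
Gnl3: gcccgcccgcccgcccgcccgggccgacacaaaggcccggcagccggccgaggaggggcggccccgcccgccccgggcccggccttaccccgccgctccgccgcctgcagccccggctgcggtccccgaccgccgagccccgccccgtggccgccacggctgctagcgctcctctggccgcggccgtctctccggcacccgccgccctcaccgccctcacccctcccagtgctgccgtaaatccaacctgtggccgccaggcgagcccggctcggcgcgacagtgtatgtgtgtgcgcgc
Nop56: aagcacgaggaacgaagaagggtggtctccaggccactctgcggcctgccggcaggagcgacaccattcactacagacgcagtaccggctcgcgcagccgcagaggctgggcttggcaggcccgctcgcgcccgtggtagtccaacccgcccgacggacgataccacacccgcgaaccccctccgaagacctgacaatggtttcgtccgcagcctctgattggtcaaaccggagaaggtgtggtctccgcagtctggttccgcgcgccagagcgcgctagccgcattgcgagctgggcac
Ddx10: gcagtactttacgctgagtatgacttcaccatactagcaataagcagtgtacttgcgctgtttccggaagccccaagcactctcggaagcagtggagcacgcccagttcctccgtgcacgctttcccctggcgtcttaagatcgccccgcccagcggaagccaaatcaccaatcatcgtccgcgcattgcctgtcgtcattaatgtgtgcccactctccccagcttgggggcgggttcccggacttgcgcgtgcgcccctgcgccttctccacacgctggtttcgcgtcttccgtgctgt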

How the data were processed

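Per the labels' protocols, total RNA of the cultures went into TruSeq v2 libraries, read in 66 bp pairs. The authors deposited raw counts per gene for each library; the submitters' processing notes name bcl2fastq, featureCounts and the build mm10, per the labels (aligner, versions and strand setting not given in the sources used here). A gene length column was deposited beside the counts.

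Entries without a gene name (917 per file, 0.450% to 0.545% of counts) were left out. All 15 libraries entered 1 edgeR model (edgeR 4.0.16, R 4.3.3) with a coefficient for each of 4 groups, TMM scaling and filterByExpr at a minimum count of 10, which removed 11002 genes. Groups follow the labels' genotype and background; titles of the Tg_FvB libraries read Knock Out, against their genotype. The quasi-likelihood test was run for 4 contrasts, with p-values adjusted by Benjamini-Hochberg over 15261 genes. The code was also run on simulated independent counts with the same spread for every gene and library. Those counts hold no near-identical libraries, so that run does not check the p-values given here. Standard errors come from the F statistic. Alternatives were RLE scaling, DESeq2 1.42.0, no filter, other covariates, summed near-identical libraries, and left-out libraries. Total counts per library, which set the precision of each value, are given above.

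The 46 genes and the other lists were chosen with earlier results of these data known. Values are printed per library for Myc, the 5 largest rises and falls, and the 5 smallest adjusted p of the difference, with up to 3 called genes of each other list; other genes printed were chosen after their values were seen. Promoters and gene positions come from RefSeq (GRCm38.p6) and GENCODE.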

Additional observations from a re-analysis of the deposited data

Results flagged for a closer look

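The effects of loss and gain of Kat6b differed in 39 of the 46 genes by the interaction contrast of edgeR's quasi-likelihood test, with KO_B6 over WT_B6 minus Tg_FvB over WT_FvB at 1.17 for Myc, 1.27 for Gnl3, 0.79 for Ddx18, 1.18 for Nop56 and 0.82 for Nhp2 on the log2 scale. In each of these 5 genes all 4 KO_B6 libraries were above all 3 WT_B6 libraries, as in 45 of the 46 genes and 29.3% of all genes. The 5 were chosen by the difference in these same data, so this order adds no support to it.

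In 13 of 94 groups of libraries, 2 groups for each of the 46 genes and Kat6b, 1 library stood apart from the rest by Dixon's test at 95%, where chance flags about 1 in 20. The genes share the same libraries, so the flags are not independent. The test was not run on all genes, so this share cannot be called particular to the 46. The flags gathered in few libraries. Tg_FvB replicate 4 was high in 5 genes, with 65.5 CPM for Nop14, 46.5 CPM for Polr1b, 329.9 CPM for Mybbp1a, 162 CPM for Noc2l and 50.9 CPM for Noc4l. Tg_FvB replicate 5 was low in 3 genes, with 70.9 CPM for Rrs1, 36.0 CPM for Nip7 and 68.8 CPM for Myc. KO_B6 replicate 1 was low in 3 genes, with 46.8 CPM for Polr1b, 113 CPM for Rrn3 and 28.8 CPM for Rrp12. KO_B6 replicate 4 was low in 2 genes, with 45.0 CPM for Noc3l and 28.4 CPM for Imp4.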

How the results depend on the processing

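Under RLE scaling, DESeq2 and no filter, all 4 counts of called genes stayed within 1.5 times their value in the report and all 4 medians kept their sign. The same held for the 3 contrasts of 2 groups in a fit of only the groups compared, and for the 3 contrasts other than that of the wild types with litter as a covariate; litter could not be separated from background between the wild types. With near-identical libraries summed, 0 genes were called in KO_B6 over WT_B6, in the difference of the effects and in WT_FvB over WT_B6, with medians of 0.62 and 0.55 in the first and last; that setting leaves 1 profile in each wild-type group, whose spread is assumed to be that of the other groups. The 10 single-gene results called in the report lost their call there too. Without Tg_FvB replicates 5 and 6 the median difference was 0.72. Leaving out 1 library at a time gave 40 to 44 called genes and medians of 0.63 to 0.70 in KO_B6 over WT_B6, 0 to 3 genes in Tg_FvB over WT_FvB (3 without Tg_FvB replicate 4), 37 to 40 in the difference, and 34 to 39 genes with medians of 0.57 to 0.60 in WT_FvB over WT_B6. Over all 24 alternatives, Imp3 lost its call in KO_B6 in 20, Imp4 in 13 and Pes1 in 11. Without KO_B6 replicate 1 and Tg_FvB replicates 5 and 6, a choice made after seeing the data, 42 genes were called in KO_B6 over WT_B6 and 40 in the difference. Same-numbered libraries did not deviate together (correlations of -0.024 to 0.081), so the numbers do not pair them. With the replicate block, 26 genes were called in Tg_FvB over WT_FvB, 2 higher and 24 lower, where 3218 and 3208 of 14179 genes were called higher and lower, at a median of -0.11; that fit holds 4 libraries of litter 844. The cause was not tested. The replicate block changed the other 3 counts by less than 1.5 times.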

Other observations

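Among the other genes of the MYC network, several partners of MAX known to oppose MYC had lower RNA levels in KO_B6. Mxd1 averaged 21.5 CPM in KO_B6 and 49.4 CPM in WT_B6 (log2 fold change -1.20 ± 0.17 (SE)), Mxd4 averaged 38.5 CPM in KO_B6 and 76.5 CPM in WT_B6 (-0.99 ± 0.13), and Mxi1 averaged 53.8 CPM in KO_B6 and 125.5 CPM in WT_B6 (-1.22 ± 0.16). Mxd3, of the same family, rose by 0.44 ± 0.078 on the log2 scale. The helicases Ruvbl1 and Ruvbl2, which also serve box C/D snoRNP assembly, rose by 0.52 and 0.39, and Mlx by 0.20. In Tg_FvB over WT_FvB none of these 7 genes was called by edgeR (adjusted p 0.254 to 0.905). Mnt and Mga, other MAX partners of the same list, were not called in KO_B6. Mxd4 and Mxi1 were also lower in WT_FvB than in WT_B6, at -0.95 and -0.74 on the log2 scale.

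The 3 large subunit assembly genes that fell in KO_B6 were Nop53, Nsa2 and Zfp622, by 0.46, 0.46 and 0.25 on the log2 scale. Nop53, which guides the exosome to the large subunit precursor, averaged 124 CPM in KO_B6 and 171 CPM in WT_B6. Of the RNA polymerase I list, Polr2f, a subunit common to all nuclear RNA polymerases, and Kdm2a, a histone demethylase, fell by 0.35 and 0.13 on the log2 scale. Among ribosomal proteins Rpl9 and Rpl17 rose by 0.35 and 0.30, beside the 3 named above, and Rps4x, Rps7, Rps9, Rps20, Rpl4, Rpl22 and Rpl23 fell, by 0.16 (Rpl4) to 0.36 (Rps20) on the log2 scale. These genes were chosen after their values were seen.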
